A study of Mus musculus with 6 samples.

Results

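Peroxisomes are small organelles that shorten very long and branched fatty acids, make the first part of ether lipids and break down hydrogen peroxide. Their proteins are made in the cytosol and are brought in by a machinery of peroxins, the products of the *Pex* genes. Brown fat is known to be rich in peroxisomes, and cold exposure is known to raise their number in fat. The RNA of the genes that build peroxisomes and of the peroxisomal lipid enzymes was examined here in inguinal white adipose tissue (iWAT) that carries an *Hlx* transgene. A list of 35 genes was set by name, 13 *Pex* genes and 22 genes for enzymes, transporters and membrane proteins. A row with exactly the listed symbol was found for 30 of them, 10 *Pex* genes and 20 of the others, among 19445 loci in the table.

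RNA-Seq was done on iWAT of 3 *Hlx* transgenic mice and 3 wild-type littermate controls, all 12 weeks old and labelled male, with 1 library per mouse. The transgene is an *Hlx* cDNA placed behind the *aP2* (*Fabp4*) promoter, which is active in fat cells and is also known to be active in some macrophages. Embryos of C57BL/6 × SJL hybrid mice were injected and the lines were backcrossed to C57BL/6, and which line was sequenced is not given in the sources used here. Neither group received a treatment. The deposited values are FPKM, a read count scaled by transcript length and library size, so levels of different genes can be compared per length.

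The samples summed to between 466059 and 542096 FPKM, and their absolute depth is unknown. Relative depth, estimated from the spacing of values near 0, ran from 0.692 to 1.41 of that of wild-type replicate 3. *Hlx* was at 96.2 ± 15.3 FPKM in transgenic mice against 7.45 ± 0.637 in controls (SD, n = 3 mice each), a log2 fold change of 3.51 (limma, adjusted p 0.000106). The libraries go against the label of male mice, since *Xist* was at 20.2 FPKM or more in all 6 and all 28 Y-linked loci stood at 0 in each. Skeletal muscle markers (7 of 8 found) summed to 494 FPKM in transgenic replicate 2 and to between 5.40 and 95.7 FPKM in the other mice. The 6 fat cell markers found of 7 summed to between 29041 and 34296 FPKM in transgenic and between 25203 and 31157 FPKM in wild-type mice, but most of this sum is *Fabp4*, whose transgenic values were all above the controls without passing the test. *Adipoq* and *Lpl* fell, to means of 1363 and 977 FPKM against 2481 and 1560 FPKM, and the other 3 overlapped between the genotypes.

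Each locus was tested with limma on log2(FPKM + 1) among the 11692 loci with a mean over 1 FPKM in at least 1 genotype. Log2 fold changes are given ± standard error on that scale, transgenic over wild type, and a gene is said to rise or fall where its Benjamini-Hochberg adjusted p over all tested loci was under 0.05. All 30 genes that were found passed this filter. *Acox2* passed only through its transgenic mean, so the counts of rises that include it rest in part on that entry. Of the 30, 13 rose and 1 fell, or 43.3% and 3.33%, against 11.6% and 7.03% of all tested loci (18.6% in either direction). Their median log2 fold change was 0.35, against -0.01 over all tested loci. With values scaled to 1 common sum per sample, 1083 loci were higher and 1178 lower, where the deposited FPKM gave 1352 higher and 822 lower. In whole tissue, fewer cells of a type and less RNA per cell cannot be told apart. Exact permutation of 3 against 3 mice reaches a two-sided p of 0.1 at the lowest, which is the value for each gene below whose groups did not overlap.

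Macrophage markers moved with the genotype too. The 5 found of 6 summed to between 88.1 and 112 FPKM in transgenic and between 146 and 190 FPKM in wild-type mice, and 3 of the 5 fell. Fibroblast and progenitor markers summed to between 497 and 741 FPKM against 945 to 975 FPKM, with 1 of 6 called lower. That gene was *Dpt*, at a mean of 202 FPKM against 518 FPKM, which weighs heavily in the sum. *Pdgfra*, *Pi16*, *Col1a1* and *Cd34* overlapped between the genotypes, and *Dpp4* was lower without passing the test. Brown and beige adipocyte markers summed to between 6218 and 8029 FPKM against 639 to 1074 FPKM, with 6 of 7 higher. Lymphocyte markers summed to between 97.7 and 146 FPKM against 141 to 182 FPKM, with 1 of 6 lower, and endothelial and epithelial sums also overlapped between the genotypes. Of 6 endothelial markers 2 were higher (*Kdr* and *Emcn*) and 1 lower (*Cldn5*), and of 5 epithelial markers none passed the test. The part of these cell types in the differences below was not tested.

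Changes of the biogenesis genes were small. Of the 10 *Pex* genes tested, all had a positive log2 fold change (*Pex11a* turned negative under 2 other scalings), where 48.4% of all tested loci did. Of the 10, 3 rose (30%, against 11.6% of all tested loci), the import receptors *Pex5* and *Pex7* and the docking protein *Pex13*. The median log2 fold change of the 10 was 0.29, and none reached a 2-fold ratio of mean FPKM. No *Pex* gene fell at an adjusted p under 0.05 (limma) or at an unadjusted p under 0.05, and 6 were higher at an unadjusted p under 0.05, where 19.4% of all tested loci were higher and 16.8% lower. In 6 of 10 every transgenic mouse was above every wild-type mouse, against 22.8% of all tested loci.

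*Pex5* encodes the receptor for matrix proteins with the C-terminal targeting signal. It was at 41.7, 35.4 and 39.7 FPKM in the transgenic mice and at 29.7, 27.1 and 23.1 FPKM in the wild-type mice. The groups did not overlap, and the log2 fold change was 0.53 ± 0.11 (limma, adjusted p 0.0203), a ratio of means of 1.46. *Pex7* encodes the receptor for the N-terminal targeting signal, which brings in among others *Phyh* and *Agps* proteins. Its values were 22.7, 24.7 and 21.8 FPKM in transgenic mice against 19.0, 19.1 and 18.8 in wild-type mice. The wild-type mice were nearly equal, and the difference was small, with a log2 fold change of 0.27 ± 0.07 (limma, adjusted p 0.0467). This call was lost in 11 of 17 alternative settings, with an adjusted p of up to 0.182.

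*Pex13*, which with *Pex14* forms the docking site at the peroxisomal membrane, had 56.1, 62.0 and 60.2 FPKM in transgenic mice against 47.1, 41.4 and 40.9 in wild-type mice. It rose without overlap, with a log2 fold change of 0.46 ± 0.09 (limma, adjusted p 0.0149). The row of *Pex13* spans 86.7 kb, where its gene model spans 19.5 kb, and what the extra span adds was not tested. Its partner *Pex14* had a log2 fold change of 0.15, with a 95% confidence interval from -0.14 to 0.44 and overlapping groups. Within a mouse, the ratio of *Pex13* to *Pex14* overlapped between the genotypes, at 1.22 ± 0.140 in transgenic and 0.982 ± 0.0932 in wild-type mice (SD, n = 3 each). The ratio of *Pex5* to *Pex7* overlapped too, at 1.70 ± 0.228 and 1.41 ± 0.168. Antisense gene models cover 28.3% of the *Pex14* exonic bases, and the libraries were made with a kit that does not mark strand.

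The other *Pex* genes did not pass the test. *Pex10*, a member of the ubiquitin ligase complex that recycles the receptors, was at 11.0, 10.7 and 10.8 FPKM in transgenic mice against 9.52, 8.15 and 6.74 in wild-type mice (limma, adjusted p 0.0635). *Pex6*, an ATPase that pulls the receptors back out of the membrane, had 37.7, 30.8 and 37.7 FPKM against 33.4, 22.2 and 20.1 FPKM (limma, adjusted p 0.107). In *Pex6* only wild-type replicate 1 reached the transgenic range. With each mouse left out in turn, its adjusted p ran from 0.018 to 0.273 (limma). It passed only without wild-type replicate 1, the mouse that made the overlap, so that fit is no separate evidence of a rise. *Pex26*, the membrane anchor of that ATPase, was low, at 3.51 ± 0.324 FPKM in transgenic mice against 3.27 ± 0.411 in wild-type mice (SD, n = 3 each). *Pex3* and *Pex19*, which insert membrane proteins, had log2 fold changes of 0.32 and 0.25 (limma, adjusted p 0.0935 and 0.195), without overlap between the genotypes. *Pex11a*, which elongates and divides peroxisomes, was at 40.3, 34.6 and 30.5 FPKM in transgenic mice and at 38.3, 34.1 and 30.3 in wild-type mice, and the 95% confidence interval of its log2 fold change ran from -0.27 to 0.34. Its sign turned negative with quantile normalization and with a common sum per sample.

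**Figure D1:**
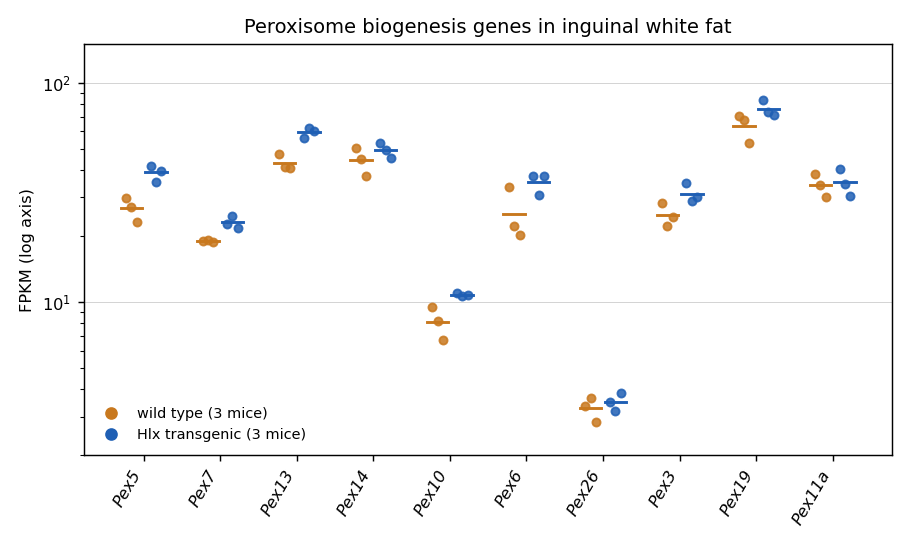
FPKM on a log axis of the 10 *Pex* genes in each mouse, ordered by role from receptors to division. Points are mice (orange wild type, blue *Hlx* transgenic, n = 3 each) and bars are group means. *Pex5*, *Pex7* and *Pex13* have no overlap between the genotypes and passed the test, while *Pex11a* is level at 35.1 and 34.2 FPKM.

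For genes of the list without a row of their own symbol, 2 have a row under another name. *Pex2*, listed as *Pxmp3*, encodes a ligase partner of *Pex10* and had 18.0, 16.8 and 17.0 FPKM in transgenic mice against 12.7, 13.7 and 12.0 in wild-type mice. It rose, with a log2 fold change of 0.40 ± 0.08 (limma, adjusted p 0.0157). The call was lost without transgenic replicate 3 (limma, adjusted p 0.0528) and without wild-type replicate 3 (0.055). The peroxisomal carrier *Pmp34*, listed as *Slc25a17*, which carries cofactors such as coenzyme A, had 45.5, 46.2 and 41.9 FPKM against 33.6, 30.2 and 26.3 FPKM. It rose as well, with a log2 fold change of 0.56 ± 0.10 (limma, adjusted p 0.0131). *Pex16* stands in a row joined with *1700029I15Rik*, at 102, 110.0 and 90.2 FPKM in transgenic mice against 111, 118 and 88.0 in wild-type mice, and reads of both genes cannot be told apart there. *Pex11g* and *Gnpat* were not analysed here. These rows are not part of the counts above.

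The enzymes, transporters and membrane proteins parted more widely than the *Pex* genes. Of 20 tested, 10 rose and 1 fell, or 50% and 5%, against 11.6% and 7.03% of all tested loci. The median log2 fold change of the 20 was 0.44, in a range from -0.43 to 1.30. The rises were led by the transporter *Abcd3*, the α-oxidation enzyme *Phyh*, the oxidase *Acox2* and the bifunctional enzyme *Ehhadh*, each with mean FPKM raised 2-fold or more. *Acox2* passed the filter only through its transgenic mean, so the size of its rise and its rank describe these mice. The count of 10 includes it. Catalase, the ether lipid genes and both Pxmp membrane proteins did not pass the test. In 11 of 20 every transgenic mouse was above every wild-type mouse, and in 1 every transgenic mouse was below, against 22.8% and 20.1% of all tested loci.

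**Figure D2:**
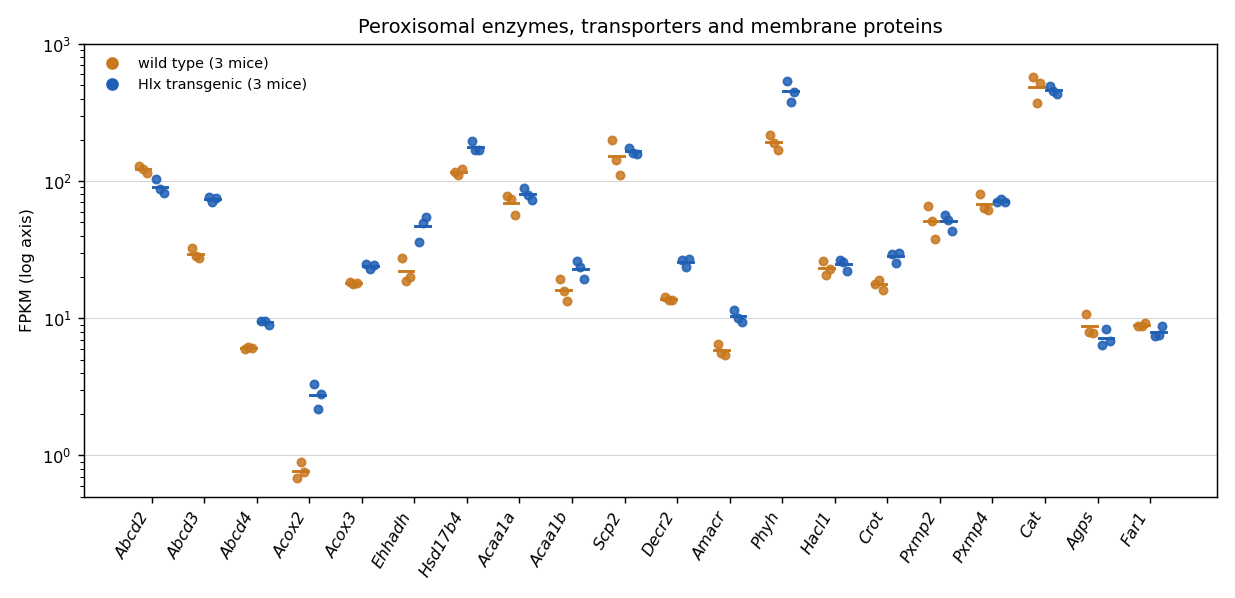
FPKM on a log axis of the 20 peroxisomal enzymes, transporters and membrane proteins in each mouse. Points are mice (orange wild type, blue *Hlx* transgenic, n = 3 each) and bars are group means. *Abcd3* rises while *Abcd2* falls beside it, and *Cat*, among the most abundant at 459 and 489 FPKM, overlaps between the genotypes.

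Fatty acyl groups enter the peroxisome through ABC transporters of subfamily D. *Abcd3*, which carries branched-chain, dicarboxylic and bile acid precursors, lies on chromosome 3 of mm10 (chr3:121758910-121815215). It was at 76.6, 70.9 and 75.6 FPKM in transgenic mice against 32.7, 28.6 and 27.3 in wild-type mice. The groups were far apart, with a log2 fold change of 1.30 ± 0.09 (limma, adjusted p 0.000518). This was the largest estimate of the 30 genes on the log2(FPKM + 1) scale, while *Acox2* had the larger ratio of means (3.57 against 2.51) and the larger estimate with a pseudocount of 0.1 or with a common sum per sample. *Abcd2*, a carrier of very long-chain and polyunsaturated acyl groups that is known to be abundant in white fat, lies on chromosome 15 (chr15:91145700-91191807). It went the other way, with 104, 87.3 and 81.3 FPKM in transgenic mice against 129, 123 and 116 in wild-type mice. Every transgenic mouse was below every control, and the log2 fold change was -0.43 ± 0.11 (limma, adjusted p 0.0377). The *Abcd2* call was lost in 7 of 17 alternative settings (adjusted p up to 0.117), among them each fit without transgenic replicate 2 or 3 or without a wild-type mouse.

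The proportions of these transporters, taken within each mouse, differed between the genotypes. This pair was chosen after the values were seen. Since *Abcd3* rose and *Abcd2* fell, each without overlap, their ratio had to separate. It restates those calls and was not tested. There were 0.738, 0.812 and 0.930 units of *Abcd3* per unit of *Abcd2* FPKM in the transgenic mice, where the controls had 0.254, 0.234 and 0.237. *Abcd2* was thus the more abundant per length in all 6 mice, with a much narrower lead in the transgenic ones. *Abcd4*, which acts in cobalamin transport from lysosomes rather than in peroxisomes, had 9.56, 9.61 and 8.91 FPKM against 5.94, 6.18 and 6.06 FPKM. It rose, with a log2 fold change of 0.55 ± 0.07 (limma, adjusted p 0.00373).

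The α-oxidation of phytanic acid removes a carbon from acids whose methyl branch blocks β-oxidation. *Phyh*, the hydroxylase that starts this path, lies on chromosome 2 (chr2:4918988-4943148) and was at 537, 377 and 450 FPKM in transgenic mice against 217, 188 and 170 in wild-type mice. It rose without overlap, with a log2 fold change of 1.23 ± 0.16 (limma, adjusted p 0.00348), and was close to catalase in level in the transgenic mice. *Hacl1*, the lyase that acts next, was at 26.8, 25.8 and 22.3 FPKM against 26.0, 20.6 and 22.8 FPKM. Its groups overlapped, with a 95% confidence interval of the log2 fold change from -0.16 to 0.37, and 33.3% of its exonic bases are shared with exons of other genes, *Btd* among them. Within a mouse, *Phyh* was 18.3 ± 3.17 times *Hacl1* in FPKM in transgenic mice and 8.32 ± 0.835 times in controls (SD, n = 3 each), without overlap. This ratio was also chosen after the values were seen and was not tested. *Amacr*, the racemase that readies the branched products for β-oxidation, had 11.5, 9.97 and 9.46 FPKM against 6.51, 5.60 and 5.44 FPKM, a log2 fold change of 0.72 ± 0.10 (limma, adjusted p 0.00488). Its row spans 46.9 kb, where the gene model spans 14.9 kb, and what the extra span adds was not tested.

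Peroxisomal β-oxidation begins with acyl-CoA oxidases, which pass electrons to oxygen and yield hydrogen peroxide. *Acox2*, the oxidase of bile acid precursors and branched acids, was at 3.33, 2.19 and 2.79 FPKM in transgenic mice against 0.686, 0.889 and 0.752 in wild-type mice. It rose at a low level, with a log2 fold change of 1.08 ± 0.14 (limma, adjusted p 0.00374), or 1.70 with a pseudocount of 0.1. *Acox3*, another oxidase of branched acids, had 24.8, 22.9 and 24.4 FPKM against 18.4, 17.8 and 18.2 FPKM. It rose by less, with a log2 fold change of 0.39 ± 0.07 (limma, adjusted p 0.0117), a call lost without transgenic replicate 3 (0.0507).

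The next steps are carried out by either of 2 bifunctional enzymes. *Ehhadh*, which serves dicarboxylic acids, was at 36.2, 49.5 and 55.0 FPKM in transgenic mice against 27.6, 18.8 and 19.9 in wild-type mice. It rose, with a log2 fold change of 1.05 ± 0.19 (limma, adjusted p 0.0125). *Hsd17b4*, which serves very long-chain and branched acids, had 195, 170 and 170 FPKM against 117, 111 and 122 FPKM. It rose too, with a log2 fold change of 0.61 ± 0.09 (limma, adjusted p 0.00702), and remained several times as abundant as *Ehhadh* in each mouse. The ratio of *Ehhadh* to *Hsd17b4* overlapped between the genotypes, at 0.267 ± 0.0725 and 0.189 ± 0.0396 (SD, n = 3 each).

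The thiolases that close the cycle did not pass the test. *Acaa1a* had 89.0, 79.0 and 73.3 FPKM in transgenic mice against 77.9, 74.3 and 57.0 in wild-type mice (log2 fold change 0.21, limma, adjusted p 0.309). *Acaa1b* had 26.1, 23.7 and 19.3 FPKM against 19.2, 15.9 and 13.3 FPKM (log2 fold change 0.49, limma, adjusted p 0.0698), with transgenic replicate 3 just above wild-type replicate 1 and so no overlap. The split between this pair is uncertain, since 21.6% of the 100-base windows of the *Acaa1a* transcript, as long as 1 read, also occur in *Acaa1b*. *Scp2*, which yields a thiolase of branched acids and a lipid carrier, was at 165 ± 8.60 FPKM and 152 ± 45.1 FPKM (SD, n = 3 each). Its wild-type mice spread from 112 to 201 FPKM across the whole transgenic range, and 32.2% of its windows occur in the pseudogene *Scp2-ps2*.

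*Decr2* and *Crot* both rose. *Decr2*, the dienoyl-CoA reductase needed for unsaturated acids, was at 26.6, 23.6 and 26.9 FPKM in transgenic mice against 14.2, 13.5 and 13.7 in wild-type mice. Its log2 fold change was 0.85 ± 0.08 (limma, adjusted p 0.0011), the second lowest adjusted p of the 30 genes after that of *Abcd3*. *Crot*, which moves shortened acyl groups onto carnitine for export to mitochondria, had 29.6, 25.3 and 30.0 FPKM against 17.8, 19.1 and 16.1 FPKM. It rose with a log2 fold change of 0.65 ± 0.10 (limma, adjusted p 0.00676).

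Catalase and the listed membrane proteins and ether lipid genes did not pass the test. Catalase, *Cat*, which breaks down the hydrogen peroxide of the oxidases, was at 492, 456 and 429 FPKM in transgenic mice against 574, 374 and 519 in wild-type mice. The transgenic values lay within the wild-type range, and the log2 fold change was -0.07 with a 95% confidence interval from -0.48 to 0.34. The estimate depended on the scaling. It was -0.43 with quantile normalization (limma, adjusted p 0.103) and -0.17 with a common sum per sample (limma, adjusted p 0.427). The membrane proteins *Pxmp2*, which forms a pore for small solutes, and *Pxmp4* had log2 fold changes of 0.01 and 0.07, and their signs turned negative with quantile normalization and with a common sum per sample. The ether lipid genes *Agps* and *Far1*, which make the ether bond and supply its fatty alcohol, had log2 fold changes of -0.25 and -0.15 (limma, adjusted p 0.26 and 0.239). *Agps* had 6.38, 8.42 and 6.78 FPKM against 10.7, 7.90 and 7.75 FPKM, and *Far1* had 7.49, 7.59 and 8.76 FPKM against 8.75, 8.74 and 9.30 FPKM. Of the 4 genes with a negative log2 fold change, only *Abcd2* passed the test.

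**Figure D3:**
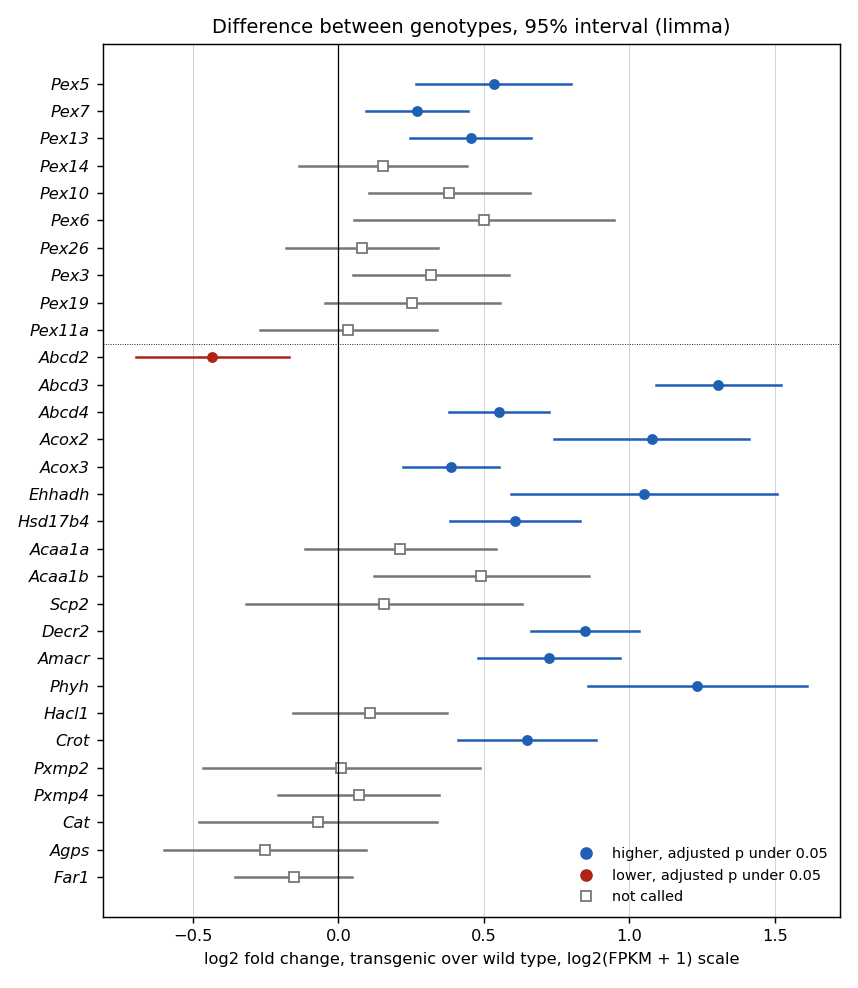
Log2 fold change of each of the 30 genes on the log2(FPKM + 1) scale, with 95% confidence intervals from limma (n = 3 mice per genotype). Filled blue is higher and filled red lower at an adjusted p under 0.05, open squares did not pass, and the dotted line parts the *Pex* genes from the others. The estimates run from -0.43 for *Abcd2* to 1.30 for *Abcd3*.

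Among the 30 genes, individual mice stood apart in the same way. Wild-type replicate 1 was the highest wild-type mouse for 23 of the 30 genes, or 76.7%, where it was highest for 38.8% of all tested loci. Transgenic replicate 1 was the highest transgenic mouse for 20, or 66.7%, against 43.2% of all tested loci. These mice also had the largest FPKM sum of their genotype, 518450 and 542096. The same mice led in the summed mitochondrial β-oxidation genes described below. These sums were 3177, 2597 and 2569 FPKM in wild-type mice and 9886, 7371 and 8310 FPKM in transgenic mice. The pattern was thus not confined to the 30 genes. Summed over the 10 *Pex* genes, the values were 384, 353 and 350.5 FPKM in transgenic mice against 329, 290 and 258 in wild-type mice. Without wild-type replicate 1, 4 *Pex* genes and 11 of the others rose, and *Abcd2* was no longer called. Without transgenic replicate 2, the mouse with the most muscle RNA, 2 *Pex* genes and 10 of the others rose. The 3 *Pex* calls were less stable, with 1 left without transgenic replicate 1 and 0 left without transgenic replicate 3, without wild-type replicate 2 or without wild-type replicate 3 (limma). Of the 10 rises among the enzymes and transporters, between 9 and 11 were counted with each mouse left out in turn.

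Other genes of the pathway, on a list set by role, were read from the same fit. Of 54 genes, 51 had a row and 43 passed the filter. Of these 43, 18 rose and 1 fell (*Slc25a17*, already described, is among the rises). That is 41.9% and 2.33%, against 11.6% and 7.03% of all tested loci. The median log2 fold change of the list was 0.39, against -0.01 over all tested loci. The 5 largest rises were those of *Slc27a2*, *Ppara*, *Ddo*, *Hsdl2* and *Nudt12*. *Slc27a2*, which activates and imports very long-chain and branched acids, had 13.0, 11.4 and 20.4 FPKM in transgenic mice against 1.36, 0.0756 and 1.34 in wild-type mice. Its log2 fold change of 3.09 ± 0.34 (limma, adjusted p 0.00207) rests on wild-type values near or below 1 FPKM. Like *Acox2*, it passed the filter only through its transgenic mean, so the size of this rise and its rank describe these mice. The count of 18 includes it.

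*Ppara*, the nuclear receptor known to drive peroxisomal β-oxidation genes, had 27.1, 27.8 and 43.0 FPKM against 6.17, 2.54 and 4.85 FPKM. It rose, with a log2 fold change of 2.63 (limma, adjusted p 0.00192). *Rxra*, its binding partner, was the gene that fell. Its 3 transgenic mice had 25.9 ± 3.03 FPKM and its controls 37.2 ± 0.700 (SD), with a log2 fold change of -0.51 (limma, adjusted p 0.0133). *Pparg* and *Ppard* had log2 fold changes of -0.02 and -0.03 (limma, adjusted p 0.973 and 0.862) and were chosen after their values were seen. The 95% confidence interval of *Pparg* was wide, from -0.73 to 0.70. *Ddo*, which oxidizes D-aspartate in the matrix, had 38.3, 25.6 and 29.8 FPKM against 11.3, 9.56 and 9.02 FPKM (log2 fold change 1.54). *Hsdl2*, a dehydrogenase of the matrix, and *Nudt12*, a hydrolase of nicotinamide nucleotides, had log2 fold changes of 1.11 and 0.86.

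Mitochondria share the β-oxidation of long and medium chains, and their genes were set beside the peroxisomal ones. Of 17 mitochondrial β-oxidation genes tested, 15 rose and 14 at least doubled their mean FPKM, where 11.6% of all tested loci rose and 4.52% doubled, with a median log2 fold change of 1.51. The 3 largest rises were those of *Acaa2*, *Hadhb* and *Acadl*, with log2 fold changes of 3.28, 2.78 and 2.21. *Cpt1a* and *Acads* did not pass the test, with log2 fold changes of -0.28 and 0.15, and the listed *Cpt1b* and *Etfb* had no row of their own symbol. In the pairs of like function that follow, the peroxisomal gene took a lower share of its mitochondrial counterpart in transgenic mice. In contrast, *Ehhadh* had a higher ratio of means (2.12) than the mitochondrial hydratase *Echs1* (1.68). The peroxisomal thiolase *Acaa1a* was at 0.649 ± 0.0867 of the mitochondrial thiolase *Acaa2* in wild-type and at 0.0772 ± 0.0143 in transgenic mice (SD, n = 3 each). *Hsd17b4* was at 0.922 ± 0.0865 of *Hadha*, the mitochondrial trifunctional subunit, in wild-type and at 0.367 ± 0.0171 in transgenic mice. *Decr2* was at 0.131 ± 0.0153 of *Decr1* in wild-type and at 0.0848 ± 0.0109 in transgenic mice. *Crot* was at 0.182 ± 0.0327 of the mitochondrial transferase *Cpt2* in wild-type and at 0.117 ± 0.0118 in transgenic mice. The groups did not overlap in these ratios, which were chosen after the values were seen and were not tested.

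**Figure D4:**
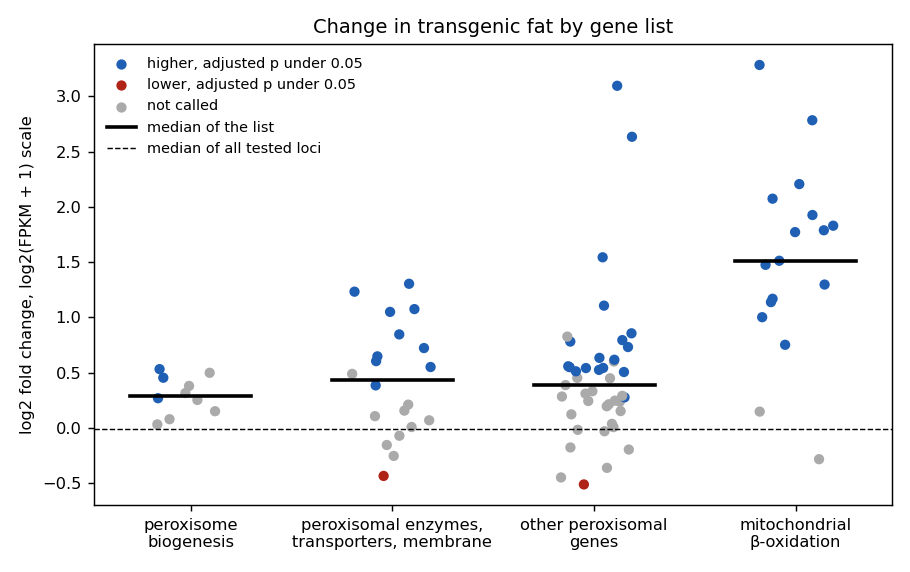
Log2 fold change on the log2(FPKM + 1) scale of each tested gene in 4 lists, with the list median as a bar and the median of all tested loci as a dashed line. Blue points are higher and red points lower in the limma test (3 mice of each genotype), grey points did not pass, and points are spread sideways only for view. The medians are 0.29, 0.44, 0.39 and 1.51 from left to right.

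Since *Ppara* and *Rxra* proteins bind direct repeats of AGGTCA, promoters were searched for AGGTCANAGGTCA on both strands, with at most 2 mismatches among the 12 fixed bases. RefSeq windows of GRCm38.p6 (the same build as mm10), from 250 bases before to 50 after a start, were at hand for 26 of the 33 genes with a row, *Pex2*, *Slc25a17* and *Pex16* included. A match was present in 2 of the 26, *Cat* and *Acox2*, where 4.403% of all 27025 genes in the table had one. The related element TCAAGGTCA, known from estrogen-related receptors and added after the values were seen, was found with at most 1 mismatch in 1 of the 26, *Acaa1b*, against 8.46% of all genes. The overlap of these motifs is the shared AGGTCA. The stretches around the matches upstream of a start are shown with the match in capitals, written on the strand of the gene (the *Acaa1b* match reads on the opposite strand), and the *Acox2* match, AGGACAGAGGTGA, lies 9 to 21 bases after the start.
Cat, chr2:103485305-103485397, minus strand: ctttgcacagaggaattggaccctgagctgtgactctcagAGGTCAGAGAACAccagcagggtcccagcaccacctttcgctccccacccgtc
Acaa1b, chr9:119157228-119157316, minus strand: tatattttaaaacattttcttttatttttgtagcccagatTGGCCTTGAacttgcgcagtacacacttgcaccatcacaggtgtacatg
*Abcd3*, *Phyh*, *Ehhadh* and *Decr2* had no match to either motif in these windows. *Abcd2* and *Hsd17b4* had no window.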

How the data were processed

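RNA-Seq of iWAT from 3 *Hlx* transgenic and 3 wild-type mice was analysed. TruSeq libraries were sequenced as single-end reads of 100 bases, mapped to mm10 with TopHat and quantified with Cufflinks by the authors, who deposited FPKM per gene and mouse. The submitters' processing notes name CASAVA 1.8.2, TopHat2 2.0.9, Bowtie2 2.1.0 and Cufflinks 2.2.1. The annotation is not given in the sources used here. Relative depth was read from values under 0.3 FPKM, of which 12.5% to 15.3% fell on the spacing used (wild-type replicate 3 was the reference). The shallowest mice were transgenic replicates 1 and 3, at 0.714 and 0.692. Transgenic replicate 2 was at 1.14 and the wild-type mice between 0.943 and 1.41, so depth ran partly with genotype. Low values are less precise in the shallower mice.

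Genotypes were compared with limma 3.58.1 in R 4.3.3 (lmFit, eBayes with trend, two-sided, no covariates) on log2(FPKM + 1), a scale that understates changes of low genes. On simulated data with independent noise, the procedure recovered 78% of 2-fold and 91% of 3-fold changes, and 4.52% of its calls were false. Smaller changes, the size of most here, were not simulated, so this does not tell how often they are missed. Locus starts were counted from 1. Exon overlap and 100-base windows came from GENCODE M21, and promoters from RefSeq. Python 3.11.15 and matplotlib 3.10.9 served for the figures. These genes and lists were chosen with earlier results of these data known. All listed genes are reported; of other lists, the 5 largest rises and falls (3 for mitochondrial genes), other names of listed genes and checks are named, and some genes that this rule names are not reported here. A planned search of protein targeting signals was not run. Alternatives were another pseudocount, filters, scalings, weights, a replicate block, single mice left out, a stricter threshold and summed loci.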

Additional observations from a re-analysis of the deposited data

How the results depend on the processing

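The counts, medians and log2 fold changes were recomputed under 17 alternatives. Without a filter on low values, 748 loci were higher and 381 lower, 1 *Pex* gene and 9 other pathway genes were higher, and 0 enzymes or membrane proteins were lower. At an adjusted p under 0.01 (limma), 569 loci were higher and 199 lower, 0 *Pex* genes and 7 other pathway genes were higher, and 0 of the enzymes and 0 of the other pathway genes were lower. Quantile normalization and a common sum per sample each gave 2 other pathway genes lower. With single mice left out, between 780 and 1295 loci were higher and between 329 and 906 lower, 0 to 4 *Pex* genes were higher, 9 to 11 enzymes and membrane proteins were higher and 0 to 1 lower, and 10 to 18 other pathway genes were higher and 1 to 2 lower, with 10 higher without wild-type replicate 2 or 3. The lowest count of higher loci came without wild-type replicate 3 and the lowest count of lower loci without transgenic replicate 3. These fits have fewer samples.

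The medians of both groups, the mitochondrial counts and *Hlx* kept their size within replicate spread or their call in all 17. That spread was 0.13 for the *Pex* median and 0.11 for the enzyme and membrane median, which is wide for values of 0.29 and 0.44. With a common sum per sample these medians were lower, at 0.20 and 0.35. *Abcd3*, *Abcd4*, *Acox2*, *Amacr*, *Crot*, *Decr2*, *Hsd17b4* and *Phyh* kept their call in all 17. Of these, *Acox2* passed the main filter only through its transgenic mean. Signs reversed only for genes without a call. With quantile normalization the log2 fold changes were -0.034 for *Pex11a*, -0.069 for *Scp2*, -0.076 for *Pxmp2* and -0.041 for *Pxmp4*. With a common sum per sample they were -0.064 for *Pex11a*, -0.088 for *Pxmp2* and -0.027 for *Pxmp4*, and with sample quality weights -0.052 for *Pex11a* and -0.083 for *Pxmp2*. With single mice left out, they ran from -0.067 to 0.13 for *Pex11a*, -0.041 to 0.38 for *Scp2*, -0.19 to 0.20 for *Pxmp2*, -0.0013 to 0.19 for *Pxmp4*, -0.25 to 0.057 for *Cat* and -0.19 to 0.023 for the row of *Pex16*. The cause was not tested.

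The replicate numbers mark different animals, and the deviations of same-numbered mice correlated at 0.0129, 0.0344 and 0.0701 over loci, so they were not treated as pairs. With the replicate number as a block, 1230 loci were higher and 656 lower, 3 *Pex* genes and 11 enzymes and membrane proteins were higher, *Pex3* and *Acaa1b* passed the threshold and *Pex7* lost it. Depth limits the genes of lowest FPKM, such as *Acox2* and *Slc27a2* in wild-type mice.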
